A study of Homo sapiens with 4 samples.

Results

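The glycosyltransferases that finish glycan chains were followed on 4 microarrays of A2780s cells, an established human epithelial ovarian cancer (EOC) line. The members were chosen by name alone, as the non-control probes present on all 4 arrays whose gene name starts with ST3GAL, ST6GAL, ST8SIA, FUT, B3GNT, B4GALT, B3GALT, B4GALNT or B3GALNT followed by digits or letters. ST3GAL1, ST6GALNAC1, ST6GALNAC2, B3GNT6 and FUT8 were left out by the same rule. It found 58 gene names of 29123 on the array, covered by 100 probes. Of these, 53 are enzymes and 5 are antisense RNAs that carry the name of an enzyme gene, which are described apart. ST8SIA6 had no probe. Testing asked that, for some group, a probe be well above background in a channel on each of its arrays. That was so for 55 of the 58 members and for 27223 genes in all. FUT3, ST8SIA1 and ST8SIA6-AS1 fell short.

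Each array held cRNA of 1 knockout clone against cRNA of the corresponding mock-transfected A2780s clone, called Ctrl. On 2 arrays the clone carried a CRISPR-Cas9 knockout of GALNT3 (GALNT3 KO), and on the other 2 it was described as a GALNT3 knockout with an added shRNA against GALNT6 (GALNT3/T6 KO, here the GALNT3/T6-labelled arrays). GALNT3 and GALNT6 start O-glycans by placing N-acetylgalactosamine on serine or threonine. By the labels Ctrl was in Cy3 and the KO clone in Cy5 on all 4 arrays, so a dye bias of a probe and a change against Ctrl cannot be told apart, while a constant bias drops out of the difference between the KO groups. Each group is 2 clones, and the shRNA came with its own vector, so vector and genotype cannot be told apart either. Each value below is a log2 ratio of the KO clone over Ctrl, and its error is limma's standard error (SE) with n = 2 arrays per group.

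The targeted genes were read first. In GALNT3 KO the log2 ratio of GALNT3 read 0.13 and 0.24, with neither channel well above background. On the 2 GALNT3/T6-labelled arrays it was 4.80 and 5.08, with the KO clone above Ctrl, which goes against the label. GALNT6 read -0.47 and -0.38 in GALNT3 KO and -0.66 and -0.69 on the GALNT3/T6-labelled arrays. The GALNT3/T6-labelled arrays also stood apart in their epithelial markers, of which 5 of 6 were higher than in Ctrl. The log2 of the summed signal of these 6 markers was 12.8 and 13.0 in GALNT3 KO, 19.8 and 19.9 in the GALNT3/T6-labelled clones, 12.6 to 12.7 in Ctrl on the first pair of arrays and 15.0 to 15.5 in Ctrl on the second pair. Their part in the results below was not tested. The leukocyte markers PTPRC, CD3E, CD14 and ITGAM were all well above background on all 4 arrays, so that flag alone does not show that a cell expresses a gene. Of the 5 fibroblast markers, COL1A1 was higher on the GALNT3/T6-labelled arrays (mean 1.98) and COL1A2, COL3A1 and LUM were lower (-0.32, -0.98 and -1.19). The log2 of the summed signal of the 5 was 14.0 to 15.0 there, against 15.2 in Ctrl. In GALNT3 KO, LUM was called lower too (-1.07), COL1A2 was called higher (0.62) and the other 3 were not called. Of the 3 endothelial markers, VWF was higher on the GALNT3/T6-labelled arrays (1.32, adjusted p = 0.00412), CDH5 was not called, and PECAM1 was not well above background on any array. The part of these markers in the results was not tested either. Between arrays of one group the log2 ratios of all tested genes correlated with r = 0.83 for GALNT3 KO and r = 0.92 for the GALNT3/T6-labelled arrays.

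Glycan chains on proteins and lipids are lengthened in the Golgi by galactosyltransferases and N-acetylglucosaminyltransferases, which build galactose and N-acetylglucosamine into repeating units. Sialyltransferases and fucosyltransferases then cap the chains with sialic acid or fucose and so set blood group, Lewis and ganglioside epitopes. Members of a family often share a linkage and differ in the chain they act on, and many of these epitopes are used as markers of carcinoma cells.

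The reference windows upstream of 4 members are shown, because they belong to a pair that fell (ST6GAL1 and B3GNT5) and a pair that rose (B4GALT5 and FUT1) on the GALNT3/T6-labelled arrays. Each holds the 250 bases before the gene's listed start, taken from RefSeq on GRCh38.p14 and written 5′ to 3′ on the gene's own strand, with the GC box letters GGGCGG, or their reverse complement, in capitals.
ST6GAL1, chr3:186930276-186930525, plus strand: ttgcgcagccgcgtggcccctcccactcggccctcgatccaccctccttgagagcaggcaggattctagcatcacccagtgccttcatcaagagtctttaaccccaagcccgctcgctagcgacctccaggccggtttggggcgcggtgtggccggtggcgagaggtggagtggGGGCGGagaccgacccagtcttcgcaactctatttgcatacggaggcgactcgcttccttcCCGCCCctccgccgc
B3GNT5, chr3:183253003-183253252, plus strand: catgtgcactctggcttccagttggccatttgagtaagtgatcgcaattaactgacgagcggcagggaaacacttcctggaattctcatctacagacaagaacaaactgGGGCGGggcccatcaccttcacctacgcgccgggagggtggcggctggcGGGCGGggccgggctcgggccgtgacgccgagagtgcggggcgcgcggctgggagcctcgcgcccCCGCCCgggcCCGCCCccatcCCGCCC
B4GALT5, chr20:49713879-49714128, minus strand: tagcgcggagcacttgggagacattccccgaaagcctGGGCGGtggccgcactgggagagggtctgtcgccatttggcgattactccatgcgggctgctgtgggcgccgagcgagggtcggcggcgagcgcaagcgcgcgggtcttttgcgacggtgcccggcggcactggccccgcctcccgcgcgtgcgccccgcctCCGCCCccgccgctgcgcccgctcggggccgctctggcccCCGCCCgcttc
FUT1, chr19:48755359-48755608, minus strand: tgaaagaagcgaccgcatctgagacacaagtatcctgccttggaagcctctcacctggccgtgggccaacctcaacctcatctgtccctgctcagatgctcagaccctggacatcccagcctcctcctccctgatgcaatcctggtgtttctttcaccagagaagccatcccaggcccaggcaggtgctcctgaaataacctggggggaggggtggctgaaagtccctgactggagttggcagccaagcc
The GC box letters occurred 2 times upstream of ST6GAL1, 5 times upstream of B3GNT5 and 3 times upstream of B4GALT5, and not upstream of FUT1. Of the 41 enzymes among the members that had such a window, 27 held them on either strand, or 65.9%, against 42.6% of all 35116 windows. CCAAT was held by 14 of the 41 windows, or 34.1%, against 32.0% of all windows. TATAAA was held by none of the 41 and by 10.7% of all. Every motif was searched on both strands, neither CCAAT nor TATAAA occurs in the 4 windows shown, and the matches describe the sequence only.

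In GALNT3 KO, 10 of the 55 tested members were called, 3 higher and 7 lower than Ctrl at an adjusted p of at most 0.05 in limma. Of all tested genes 11.2% were called in that comparison, 4.78% higher and 6.42% lower. On the GALNT3/T6-labelled arrays, 35 members were called, 20 higher and 15 lower, where 47.8% of all tested genes were called, 24.8% higher and 23.1% lower. Between the KO groups 17 members were called, 9 higher and 8 lower in the GALNT3/T6-labelled group, where 23.7% of all tested genes were called, 11.8% in each direction. The median size of the log2 ratio over the members was 0.21 in GALNT3 KO and 0.46 on the GALNT3/T6-labelled arrays, beside 0.21 and 0.35 over all tested genes. The plot of log2 ratios by array shows that most members lay near 0 in GALNT3 KO and that a smaller number lay far from 0 in both directions on the other 2 arrays.

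**Figure D1:**
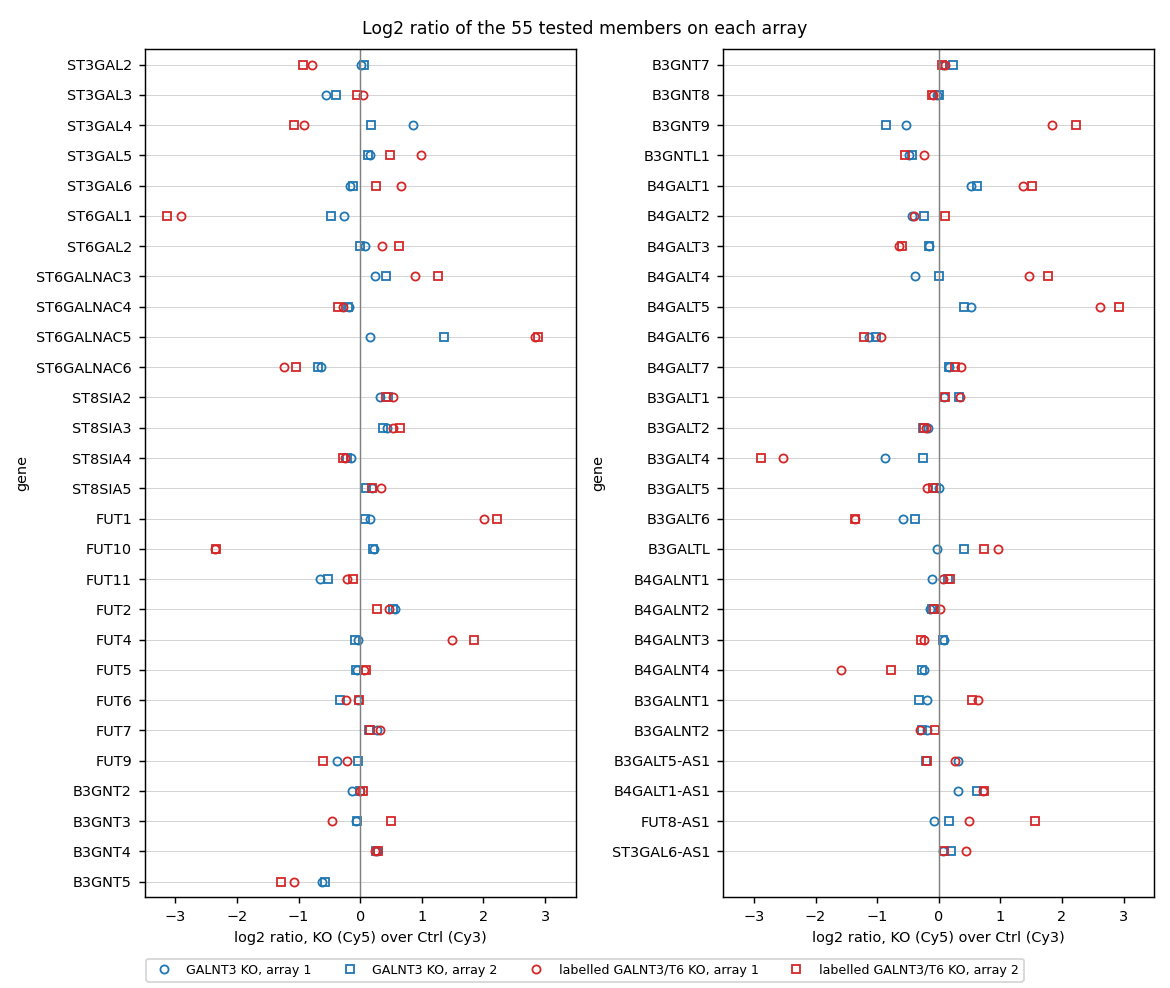
Log2 ratio of KO (Cy5) over Ctrl (Cy3) on each of the 4 arrays (x axis) for the 55 tested members (y axis), ordered by family, with GALNT3 KO arrays in blue and GALNT3/T6-labelled arrays in red. The red points of ST6GAL1, B3GALT4 and FUT10 lie farthest to the left and those of ST6GALNAC5 and B4GALT5 farthest to the right.

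By the brightest probe of each gene, ST6GAL1 changed most among the sialyltransferases, while its other probe read -0.50 on the GALNT3/T6-labelled arrays. ST6GAL1 places sialic acid in α2,6 linkage on galactose of N-glycan antennae, and its brightest probe lies at chr3:186796052-186796111 of hg19. Its log2 ratio was -0.26 and -0.47 in GALNT3 KO and -2.91 and -3.13 on the GALNT3/T6-labelled arrays. There it fell to a mean of -3.02 (SE 0.11), 8.10-fold below Ctrl, with an adjusted p of 0.000138. The Ctrl signal stayed between 12.1 and 12.2 on the log2 scale on all 4 arrays, while the KO signal was 11.9 and 11.7 in GALNT3 KO and 9.19 and 9.11 on the other arrays. The difference between the KO groups was -2.66 (95% interval -3.05 to -2.26, adjusted p = 0.000899). ST6GAL2, which has the same linkage, read 0.35 and 0.63 on the GALNT3/T6-labelled arrays and was called higher at a mean of 0.49 (SE 0.10, adjusted p = 0.0174), without a call between the KO groups (0.46, 95% interval 0.08 to 0.84).

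The ST6GALNAC enzymes, which add sialic acid to N-acetylgalactosamine of O-glycans and gangliosides, moved in both directions. ST6GALNAC5, known for making the ganglioside GD1α, read 2.83 and 2.89 on the GALNT3/T6-labelled arrays, a 7.26-fold rise (mean 2.86, SE 0.29, adjusted p = 0.00201). In GALNT3 KO it read 0.16 on the first array, where neither channel was well above background, and 1.35 on the second, with no call (adjusted p = 0.139). Its Ctrl signal differed between arrays too, at 7.11, 8.37, 9.12 and 9.15 on the log2 scale, so its ratio rests on an uneven Ctrl. ST6GALNAC3 read 0.23 and 0.42 in GALNT3 KO and 0.89 and 1.26 on the GALNT3/T6-labelled arrays, where it rose (mean 1.07, SE 0.12, adjusted p = 0.00296). ST6GALNAC6, whose products include GD1α and disialyl Lewis a, was lower in both groups, at -0.64 and -0.69 in GALNT3 KO (adjusted p = 0.0293) and -1.24 and -1.04 on the GALNT3/T6-labelled arrays (adjusted p = 0.00103). All 4 arrays therefore had it below Ctrl, and no call was made between the groups (-0.47, 95% interval -0.81 to -0.13, adjusted p = 0.0632). ST6GALNAC4 was called lower on the GALNT3/T6-labelled arrays only at a small size, -0.28 and -0.36 (adjusted p = 0.0291).

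Of the 5 tested α2,3-sialyltransferases, 2 rose and 2 fell on the GALNT3/T6-labelled arrays by the brightest probe. That is 80% called, beside 47.8% of all tested genes. ST3GAL2, which acts on core 1 O-glycans and gangliosides, read 0.00 and 0.05 in GALNT3 KO and -0.79 and -0.94 on the GALNT3/T6-labelled arrays, 1.82-fold below Ctrl (adjusted p = 0.00195). ST3GAL4, which caps N-acetyllactosamine on the way to sialyl Lewis x, read 0.86 and 0.18 in GALNT3 KO and -0.91 and -1.08 on the GALNT3/T6-labelled arrays (adjusted p = 0.0117). Both differences between the KO groups were called, at -0.89 for ST3GAL2 and -1.51 for ST3GAL4, where 23.7% of all tested genes were called. Other probes of both genes disagreed in direction, as given below. The groups differed by 0.94 on the second probe of ST3GAL4 and by 0.12 on 1 probe of ST3GAL2. ST3GAL5, the synthase of ganglioside GM3, rose to 0.99 and 0.48 (adjusted p = 0.0141). ST3GAL6, which acts on type II lactosamine chains, rose to 0.66 and 0.25 (adjusted p = 0.0363), and neither it nor ST3GAL5 was called between the KO groups. ST3GAL3 was the only one of the 5 called in GALNT3 KO, at -0.55 and -0.39 (adjusted p = 0.0444), and read 0.04 and -0.05 on the other arrays. Its second probe lay above Ctrl in GALNT3 KO, at 0.03 and 0.10, and the call was lost with the mean of all probes.

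The α2,8-sialyltransferases extend sialic acid chains, with ST8SIA2 and ST8SIA4 known as the polysialic acid synthases of the neural cell adhesion molecule. Their changes were small. By its brightest probe ST8SIA3 lay above Ctrl on all 4 arrays, at 0.44, 0.38, 0.53 and 0.64, and was called in both KO groups (adjusted p = 0.0491 and 0.00548). The second probe of ST8SIA3 lay nearer 0, at 0.13, 0.06, 0.18 and -0.06. With the mean of all probes its call in GALNT3 KO was lost. ST8SIA2 lay at 0.32, 0.44, 0.53 and 0.42 and was called only on the GALNT3/T6-labelled arrays (adjusted p = 0.0116). A near equal ratio on all arrays was also seen for the leukocyte gene ITGAM, at 0.51, 0.52, 0.49 and 0.50, and it too was called in both groups, so a constant ratio of this size was not peculiar to genes of glycan synthesis. ST8SIA4 was called lower at -0.25 and -0.27 (adjusted p = 0.0494). On the first GALNT3 KO array neither channel of its probe was well above background. ST8SIA5 was not called, and the GD3 synthase ST8SIA1 was well above background in no channel of any array.

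Fucosyltransferases gave 3 rises and 1 fall on the GALNT3/T6-labelled arrays among the 9 that were tested. That is 44.4% called, beside 47.8% of all tested genes. FUT1 makes the H antigen by adding α1,2-linked fucose to galactose, and its probe lies at chr19:49251268-49251325 of hg19. It read 0.15 and 0.07 in GALNT3 KO and 2.01 and 2.22 on the GALNT3/T6-labelled arrays, a 4.34-fold rise (mean 2.12, SE 0.09, adjusted p = 0.000231). Its Ctrl signal was low, at 7.36, 6.99, 7.05 and 7.21 on the log2 scale, and in GALNT3 KO its KO signal was 7.51 and 7.06. Both channels were still well above background on all 4 arrays, while ST6GALNAC5 was not at a Ctrl signal of 7.11. The KO groups differed by 2.01 (95% interval 1.66 to 2.36, adjusted p = 0.00128), and FUT1 was not called in GALNT3 KO (adjusted p = 0.432). FUT4, a myeloid-type α1,3-fucosyltransferase that makes Lewis x, read -0.03 and -0.08 in GALNT3 KO and 1.49 and 1.84 on the GALNT3/T6-labelled arrays, a 3.18-fold rise (adjusted p = 0.000646). FUT2, the secretor gene and neighbour of FUT1 on chromosome 19, was called higher in both groups at a smaller size, 0.57 and 0.53 in GALNT3 KO (adjusted p = 0.0374) and 0.46 and 0.27 on the others (adjusted p = 0.029). FUT1 and FUT4 thus rose in the second group, with the difference between groups called for both, while for FUT2 that difference was not called (-0.18, 95% interval -0.52 to 0.15).

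The fall was in FUT10, now named POFUT3 in RefSeq and grouped with the enzymes that put fucose directly on proteins. It read 0.22 and 0.20 in GALNT3 KO and -2.35 and -2.35 on the GALNT3/T6-labelled arrays, 5.09-fold below Ctrl (SE 0.08, adjusted p = 0.000125). Its difference between the KO groups, -2.56 (95% interval -2.85 to -2.27), stayed called in all 13 alternative settings run for it. FUT11, now POFUT4, was lower in GALNT3 KO, at -0.65 and -0.52 (adjusted p = 0.0326), and was not called on the other arrays, at -0.22 and -0.12, nor between the groups (adjusted p = 0.077). The Lewis-type enzymes FUT5, FUT6, FUT7 and FUT9 were called in no comparison, and FUT3 was not tested.

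The β1,4-galactosyltransferases make the galactose link of N-acetyllactosamine, of lactosylceramide and of the glycosaminoglycan linker. All but B4GALT2 of the 7 were called on the GALNT3/T6-labelled arrays, 4 higher and 2 lower. That is 85.7% called, beside 47.8% of all tested genes. B4GALT5 rose most, at 0.52 and 0.40 in GALNT3 KO, short of the threshold (adjusted p = 0.0629), and at 2.62 and 2.93 on the GALNT3/T6-labelled arrays, 6.85-fold above Ctrl (mean 2.78, SE 0.11, adjusted p = 0.000178). Its probe lies at chr20:48249778-48249837 of hg19. B4GALT6 belongs, like B4GALT5, to the lactosylceramide synthases, the entry point of most glycosphingolipids. It fell in both KO groups, at -1.13 and -1.02 in GALNT3 KO (adjusted p = 0.0186) and at -0.93 and -1.21 on the GALNT3/T6-labelled arrays (adjusted p = 0.00185). By its brightest probe the mean was -1.07 (SE 0.10) in each group, 2.10-fold below Ctrl. The 95% interval of the difference between the groups ran from -0.39 to 0.39 for that probe. The lactosylceramide synthases thus moved apart on the GALNT3/T6-labelled arrays, B4GALT5 above and B4GALT6 below Ctrl on both.

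B4GALT1, the most widely used galactosyltransferase of N-acetyllactosamine, rose in both groups, at 0.52 and 0.61 in GALNT3 KO (adjusted p = 0.0341) and at 1.37 and 1.51 on the GALNT3/T6-labelled arrays (2.71-fold, adjusted p = 0.000488). The second pair lay above the first, and the difference of 0.87 was called (95% interval 0.55 to 1.19, adjusted p = 0.01). B4GALT4, active on chains with sulfated N-acetylglucosamine, read -0.38 and 0.01 in GALNT3 KO and 1.47 and 1.77 on the GALNT3/T6-labelled arrays (3.06-fold, adjusted p = 0.00126). B4GALT3 fell there, at -0.64 and -0.59 (1.53-fold, adjusted p = 0.00402), and read -0.16 on both GALNT3 KO arrays. B4GALT7, which adds the first galactose of the glycosaminoglycan linker, was called higher at 0.36 and 0.26 (adjusted p = 0.0339).

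**Figure D2:**
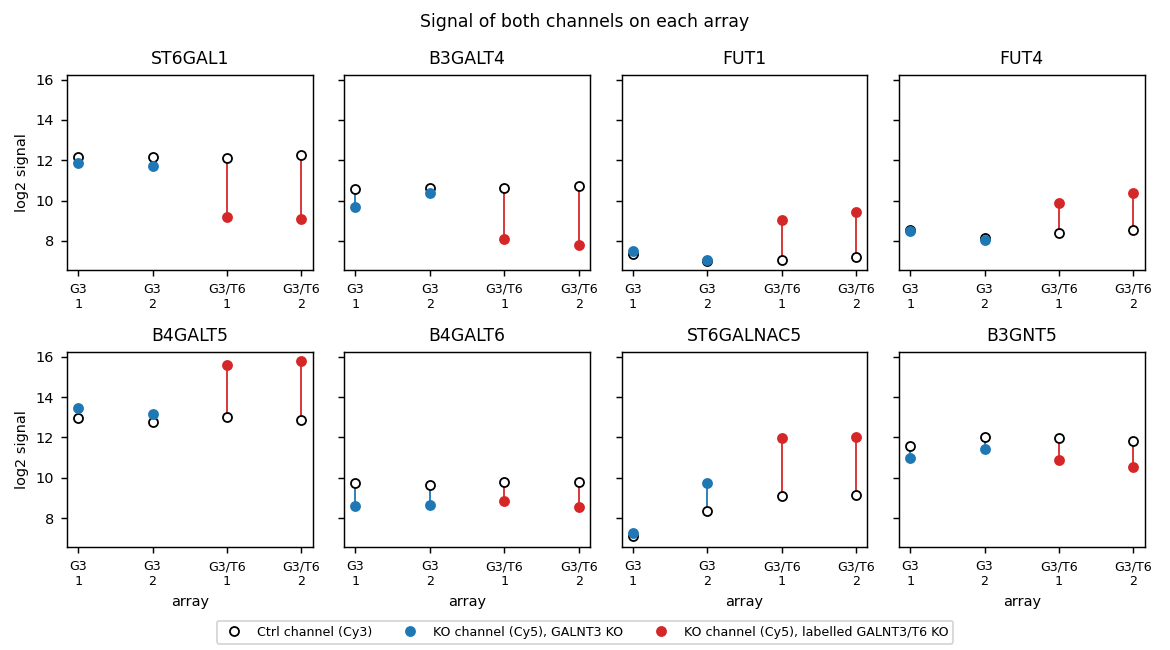
Log2 signal (y axis) of the Ctrl channel (open black points) and of the KO channel (filled points, GALNT3 KO in blue and labelled GALNT3/T6 KO in red) on each array (x axis; G3, GALNT3 KO; G3/T6, labelled GALNT3/T6 KO) for 8 members, with a line joining the 2 channels of an array. Ctrl signals of ST6GAL1 stay between 12.1 and 12.2 while the red KO points fall to 9.19 and 9.11, and Ctrl signals of ST6GALNAC5 run from 7.11 to 9.15.

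The β1,3-N-acetylglucosaminyltransferases start and extend lactosamine repeats, and of the 8 tested 2 rose and 2 fell on the GALNT3/T6-labelled arrays. That is 50% called, near the 47.8% of all tested genes. B3GNT5, the synthase that opens the lacto-series glycolipids, fell in both groups, at -0.62 and -0.58 in GALNT3 KO (1.51-fold, adjusted p = 0.0343) and at -1.08 and -1.29 on the others (2.27-fold, adjusted p = 0.00097). The difference of -0.58 between the groups was called as well (95% interval -0.93 to -0.24, adjusted p = 0.0365). B3GNT9, a less studied family member, fell in GALNT3 KO, at -0.54 and -0.86 (adjusted p = 0.0475), and rose on the GALNT3/T6-labelled arrays, at 1.84 and 2.22 (4.08-fold, adjusted p = 0.000655). It was the member called in opposite directions in the KO groups, which differed by 2.73 (95% interval 2.22 to 3.24, adjusted p = 0.00156). B3GNTL1, now QTGAL and known as a galactosyltransferase of queuosine in tRNA, was called lower at -0.24 and -0.55 (adjusted p = 0.0366), and B3GNT4 higher at 0.24 and 0.29 (adjusted p = 0.0472), with 0.27 and 0.26 in GALNT3 KO. B3GNT2, the main enzyme of polylactosamine, read between -0.13 and 0.04 on the 4 arrays and was not called, nor were B3GNT3, B3GNT7 and B3GNT8.

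Among the β1,3-galactosyltransferases, B3GALT4, which makes the gangliosides GM1 and GD1b, read -0.88 and -0.26 in GALNT3 KO without a call (adjusted p = 0.104) and -2.53 and -2.88 on the GALNT3/T6-labelled arrays. The latter was a 6.53-fold fall (mean -2.71, SE 0.18, adjusted p = 0.000636), and the groups differed by -2.14 (95% interval -2.81 to -1.46). The second probe of B3GALT4, which did not enter the test, read lower in GALNT3 KO, at -1.06 and -1.15. On that probe the groups differed by -1.57. B3GALT6, which adds the second galactose of the glycosaminoglycan linker, fell in both groups, at -0.58 and -0.38 in GALNT3 KO (1.39-fold, adjusted p = 0.044) and at -1.37 and -1.36 on the others (2.57-fold, adjusted p = 0.000609). The linker enzymes B3GALT6 and B4GALT7 therefore lay on opposite sides of Ctrl on the GALNT3/T6-labelled arrays. B3GALTL, now B3GLCT, adds glucose to O-linked fucose of thrombospondin repeats and was called higher at 0.97 and 0.73 (adjusted p = 0.00847), a direction that its second probe did not share, as given below. B3GALT1, B3GALT2 and B3GALT5 were not called in any comparison.

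Of the 6 N-acetylgalactosaminyltransferases, 1 rose and 2 fell on the GALNT3/T6-labelled arrays. The share called was 50% in the β1,4 and in the β1,3 family, near the 47.8% of all tested genes. B4GALNT4, which forms the LacdiNAc unit, fell on the GALNT3/T6-labelled arrays, at -1.59 and -0.78 (mean -1.19, SE 0.20, adjusted p = 0.00978), and read -0.23 and -0.27 in GALNT3 KO. The same reaction is carried out by B4GALNT3, called lower at -0.24 and -0.29 (adjusted p = 0.0464). B3GALNT1, the globoside synthase, lay below Ctrl in GALNT3 KO, at -0.19 and -0.32 without a call (adjusted p = 0.117), and rose on the GALNT3/T6-labelled arrays, at 0.64 and 0.53 (adjusted p = 0.00638). The groups differed by 0.84 (95% interval 0.52 to 1.17, adjusted p = 0.011). B4GALNT1, the GM2 synthase, B4GALNT2 and B3GALNT2 were not called. The second probe of B4GALNT1, which did not enter the test, lay below Ctrl on all 4 arrays. It read -0.67 and -0.51 in GALNT3 KO and -0.90 and -0.99 on the GALNT3/T6-labelled arrays.

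The antisense RNAs were counted among the members by name only. B4GALT1-AS1 rose on the GALNT3/T6-labelled arrays, at 0.72 and 0.73 (adjusted p = 0.00615), and read 0.31 and 0.63 in GALNT3 KO. FUT8-AS1 was called higher at 0.49 and 1.55 (adjusted p = 0.0325), with the 2 arrays far apart. B3GALT5-AS1 and ST3GAL6-AS1 were not called.

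The 17 members called in the direct comparison of the KO groups are seen in the plot of group differences. All 17 were also called against Ctrl on the GALNT3/T6-labelled arrays, in the same direction. The other 18 members called against Ctrl on those arrays were not called between the groups, which does not show that the groups were alike. For the brightest probe of B4GALT6 the interval of the difference allowed at most 0.39 on the log2 scale in either direction. Its second probe differed by 0.42, with -0.96 in GALNT3 KO and -0.55 on the GALNT3/T6-labelled arrays. For ST8SIA3 the interval ran from -0.13 to 0.49 and for FUT2 from -0.52 to 0.15. The members called higher in both groups against Ctrl were B4GALT1, FUT2 and ST8SIA3, and those lower in both were B4GALT6, B3GNT5, B3GALT6 and ST6GALNAC6. Both comparisons use Ctrl RNA on every array.

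**Figure D3:**
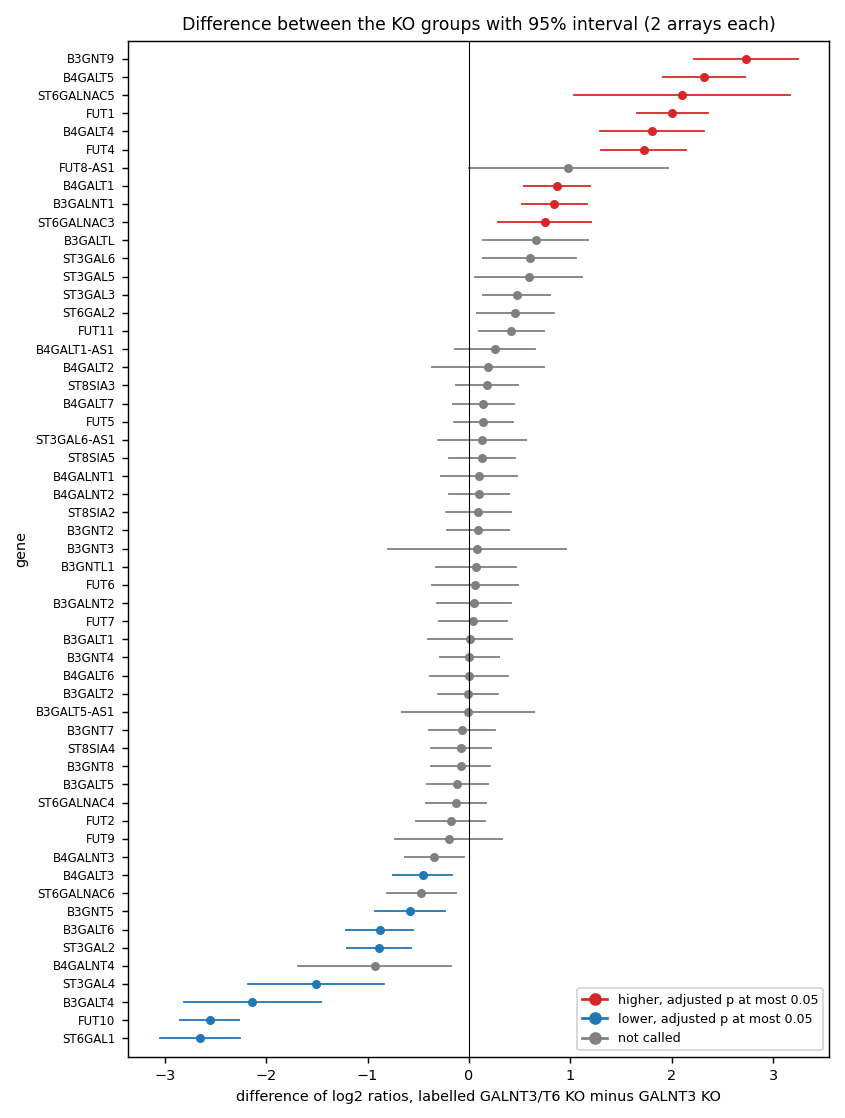
Difference of the mean log2 ratios, GALNT3/T6-labelled arrays minus GALNT3 KO (x axis), with its 95% interval from limma (2 arrays per group), for the 55 tested members (y axis) in order of size. Called members are red where higher and blue where lower, from ST6GAL1 at -2.66 at the bottom to B3GNT9 at 2.73 at the top.

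The 10 calls in GALNT3 KO were small and rested on both arrays. B4GALT6 was the only one past 2-fold. Without either GALNT3 KO array, with 1 array left in the group, calls were lost over all tested genes and not only over these members. With the replicate number as a block none of the 10 was called, beside 82 of all 27223 tested genes. With the GALNT3 KO arrays fitted alone the count was 20, beside 9447 of all tested genes. The calls in GALNT3 KO depended on the scaling, since median centring in place of loess gave 0 higher and 7 lower, against 3 and 7. Of those 7, 6 were among the reported calls, and B3GNT9 was lost. The 35 calls on the GALNT3/T6-labelled arrays came to 23 with that group fitted alone, beside 8282 of all tested genes. The GALNT3 KO arrays contribute only to the estimate of spread in that comparison. Between the groups, 17 calls became 6 without GALNT3 KO replicate 1 and 8 without GALNT3 KO replicate 2. Calls over all tested genes became fewer in these fits too. ST6GAL1, FUT1, FUT10, B3GNT9 and B4GALT5 were among those still called between the groups without either array.

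Several members carry more than 1 probe, and the one with the brightest mean signal stood for the gene. Of the 35 members called on the GALNT3/T6-labelled arrays, 21 had several probes above background, and in 14 of these all probes pointed the same way. Their sizes differed. The second probe of ST6GAL1 read -0.50, against -3.02 for the brightest. For B4GALT5 it was 0.90 against 2.78, for FUT4 0.25 against 1.67 and for B4GALT1 0.43 against 1.44. For B4GALNT4 it was -0.09 against -1.19. The second probe of FUT2 lay near 0 in both groups, at 0.02 in GALNT3 KO and 0.01 on the others. B3GALT4 was the closest among the large changes on the GALNT3/T6-labelled arrays, at -2.67 and -2.71. Its 2 probes overlap, at chr6:33246529-33246588 and chr6:33246543-33246603 of hg19, so they are not separate readings. In GALNT3 KO they lay further apart, at -1.11 and -0.57. FUT10 had other probes at -2.11 and -0.26, beside the brightest at -2.35. In GALNT3 KO these gave -0.61 and -0.04, where the brightest gave 0.21. B3GNT9 read 0.65 and 0.36 on its other probes, and in GALNT3 KO these gave -0.01 and 0.29 where the brightest gave -0.70. On the GALNT3/T6-labelled arrays all 3 probes of B3GNT9 thus lay above 0, and in GALNT3 KO they did not share a direction.

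Probes of 7 called members disagreed in direction. The second probe of B3GALTL read -1.72 where the brightest read 0.85, so no direction can be given for that gene. ST3GAL4 read 0.40 on its second probe, and -0.54 there in GALNT3 KO, the reverse of the brightest probe in both groups. ST3GAL2 had 2 probes below 0, at -0.86 and -0.99, and another at 0.27. The second probe of FUT8-AS1 read -0.15, and those of ST8SIA2 and ST8SIA4 lay near 0, as did the other probes of B4GALNT3. B3GALNT1 went the other way in size, with 1.89 on its second probe against 0.59 on the brightest. Which transcripts each probe meets was not analysed here.

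**Figure D4:**
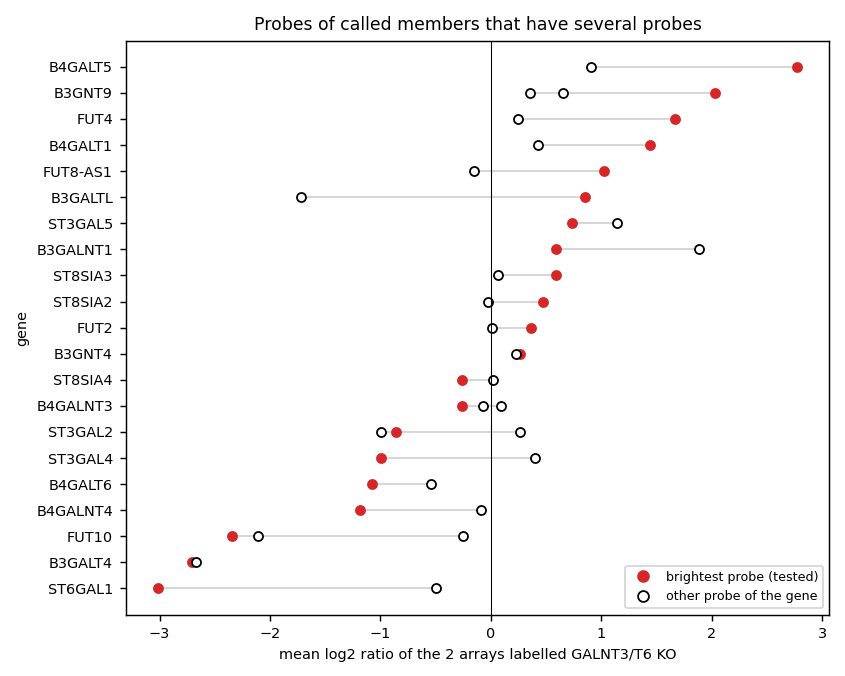
Mean log2 ratio of the 2 GALNT3/T6-labelled arrays (x axis) for each probe of the 21 called members with several probes (y axis), with the brightest probe, used in the tests, in red and other probes open. B3GALT4 has its probes, which overlap in sequence, together at -2.71 and -2.67. B3GALTL has them on both sides of 0, at 0.85 and -1.72.

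In all, 37 members were called in at least 1 comparison and 18 tested members in none. The 18 were FUT5, FUT6, FUT7, FUT9, B3GNT2, B3GNT3, B3GNT7, B3GNT8, B4GALT2, B3GALT1, B3GALT2, B3GALT5, B4GALNT1, B4GALNT2, B3GALNT2, ST8SIA5, B3GALT5-AS1 and ST3GAL6-AS1. By the tested probe, the uncalled members ran from -0.41 in FUT9 to 0.27 in ST3GAL6-AS1 on the GALNT3/T6-labelled arrays. Other probes could lie outside that range, as at -0.95 for B4GALNT1 and -0.60 for B4GALT2. B3GNT3 gave the widest spread between those 2 arrays, at -0.46 and 0.50. FUT6 and B3GALTL could be read only with their probe's listed place in mind, since the probe of FUT6 is listed over a stretch from 5774135 to 5830832 of chromosome 19 in hg19 and the 2 probes of B3GALTL disagreed. The 4 genes renamed in RefSeq are given here by the array's names.

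The enzymes need nucleotide sugars, and their products are cleared by lysosomal and surface glycosidases. A list of 30 such genes was followed beside the members, and all 30 were tested. On the GALNT3/T6-labelled arrays 14 were called higher and 6 lower, or 66.7%, beside 47.8% of all tested genes. The median log2 ratio was 0.23, beside 0.03 over all tested genes. In GALNT3 KO 4 were higher and 6 lower, or 0 and 4 with median centring, with a median of 0.06. Between the groups 12 were higher and 3 lower. The shares called were 33.3% in GALNT3 KO and 50% between the groups, beside 11.2% and 23.7% of all tested genes. On the GALNT3/T6-labelled arrays the 8 glycosidases had a median log2 size of 1.67, against 0.57 for the 22 donor supply genes. In GALNT3 KO the medians were 0.43 and 0.42. NEU1, the lysosomal sialidase, read 0.12 and 0.16 in GALNT3 KO and 2.41 and 2.61 on the GALNT3/T6-labelled arrays, a 5.70-fold rise (adjusted p = 0.00015). HEXA, a subunit of β-hexosaminidase, rose 2.81-fold there (1.51 and 1.47, adjusted p = 0.00071). The fucosidases FUCA1 and FUCA2 rose 3.60-fold and 4.06-fold. Of the 8 glycosidases, 6 were called higher there, where 24.8% of all tested genes were called higher. Only GLB1, the lysosomal β-galactosidase, was called lower, at -1.01 and -0.45 (adjusted p = 0.0204), while NEU3 was not called.

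Between the KO groups 10 of the 22 donor supply genes were called, or 45.5%, beside 23.7% of all tested genes. Each of the 4 sugar supplies had at least 1 of the 10. UGP2, the UDP-glucose pyrophosphorylase, fell in GALNT3 KO, at -0.63 and -0.64, and rose on the GALNT3/T6-labelled arrays, at 0.31 and 0.25. GFPT2, an entry enzyme of the hexosamine pathway, followed the same signs, at -0.59 and -0.46 and then 0.84 and 1.05. Both were called in both groups. PGM3 fell in GALNT3 KO, at -1.23 and -1.29 (2.39-fold, adjusted p = 0.018), and was not called on the other arrays. The UDP-galactose transporter SLC35A2 rose in both groups, at 0.42 and 0.53 and then 1.69 and 1.47. GNPNAT1, an acetyltransferase of the hexosamine pathway, read 0.34 and 0.51 in GALNT3 KO without a call and fell on the GALNT3/T6-labelled arrays, at -1.42 and -1.54 (adjusted p = 0.00052).

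For sialic acid the supply genes moved both ways on the GALNT3/T6-labelled arrays. GNE, which starts sialic acid synthesis, fell at -1.61 and -1.11 (2.57-fold, adjusted p = 0.00538) and NANP at -0.73 and -1.15 (adjusted p = 0.00532), the latter also in GALNT3 KO. CMAS, which activates sialic acid, rose at 0.80 and 0.68 (adjusted p = 0.00291), as did the CMP-sialic acid transporter SLC35A1, at 1.20 and 0.82 (adjusted p = 0.00321). For fucose, the salvage genes FUK and FPGT fell, at -0.92 and -0.57 and at -0.61 and -0.95, the GDP-fucose transporter SLC35C1 rose at 0.36 and 0.64, and the de novo genes GMDS and TSTA3 were not called. In GALNT3 KO, FUK lay on the other side of Ctrl, at 0.37 and 0.47 without a call, and FPGT read -0.16 and -0.05. The differences between the groups were called for FUK (-1.16, adjusted p = 0.00996), FPGT (-0.68, adjusted p = 0.0417) and CMAS (0.77, adjusted p = 0.0127). The plot of donor and removal genes shows the glycosidases, at its foot, as the group with most red points above 1.

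**Figure D5:**
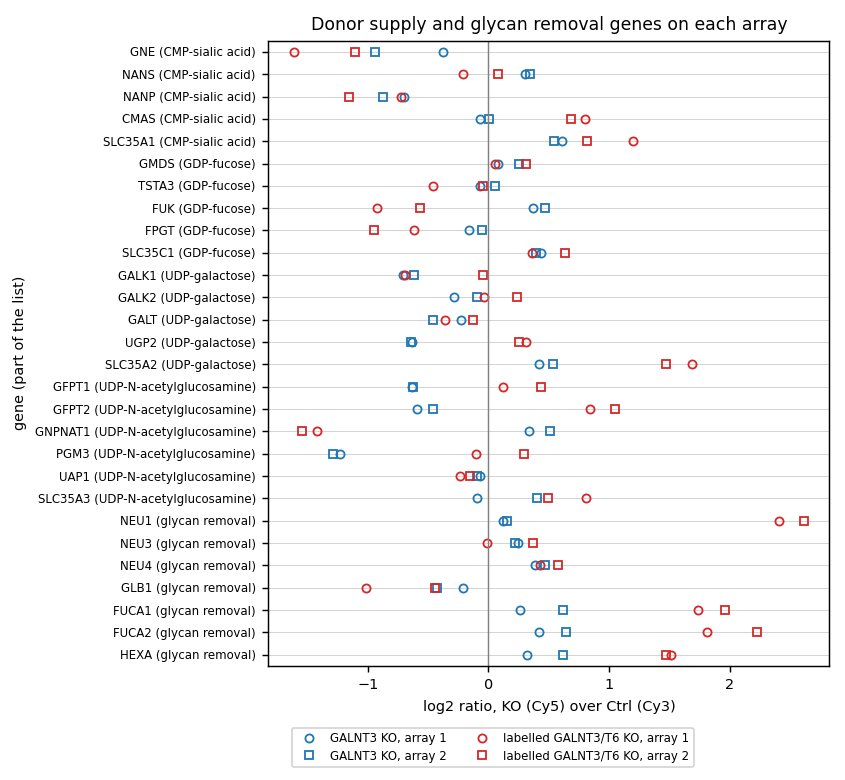
Log2 ratio of KO over Ctrl on each array (x axis) for 28 of the 30 genes of donor supply and glycan removal (y axis, with the part of the list in brackets), GALNT3 KO arrays in blue and GALNT3/T6-labelled arrays in red. NEU1, FUCA1, FUCA2 and HEXA lie above 1 in red, and UGP2 and GFPT2 lie on opposite sides of 0 in the 2 groups.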

How the data were processed

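Total RNA of 2 GALNT3 KO clones and 2 clones labelled GALNT3/T6 KO was hybridized against Ctrl RNA on 4 Agilent 44K arrays. The authors scanned them and extracted spot intensities, which were deposited per array with Agilent's log10 ratios, flags and a series table of log10 ratios. Per the labels Feature Extraction 8.5.1.1 was used, and the file headers name 10.7.3.1. Each array held 45015 spots, 1639 of them controls. Of the others, 86.9% to 93.8% per channel were well above background and 0 were saturated. The number of arrays limits the precision.

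From mean spot intensities and median local background, values were corrected with normexp (offset 50) and normalized by loess within each array in R 4.3.3 with limma 3.58.1, control and outlier spots having weight 0. Spots of a probe were averaged. A gene was represented by its brightest passing probe. limma was fitted to all 4 arrays with a mean per group and tested each group against 0 and against the other, and p-values were adjusted by Benjamini-Hochberg over the 27223 tested genes. A gene was called at an adjusted p of at most 0.05. The replicates are clones. No Ctrl was hybridized against Ctrl, so its own spread is not in the tests against 0. The methods do not say whether 1 Ctrl RNA served all arrays. Channel signals are given after Aquantile normalization between arrays. All 4 arrays lay on 1 slide and had 1 scan time. Some genes of the marker and donor lists are counted but not reported here by name. Full values are given for members called in at least 1 comparison and the others by range and count. The rule, the gene lists and the tests were chosen with earlier results of these data known. All 58 member names matched RefSeq, 41 of the enzymes with an upstream window. Alternatives were the background correction, the normalization, the probe filter, the probe summary, the arrays fitted, the methods' t-test and threshold, the replicate block and leaving out each array. The deposited log10 series table matched Agilent's log10 ratio within 0.017 on the log2 scale.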

Additional observations from a re-analysis of the deposited data

Results flagged for a closer look

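In 6 members both arrays of one KO group lay on one side of Ctrl and both arrays of the other group on the other side, and the difference between the groups was called by limma. That is 10.9% of the 55 tested members, beside 10.2% of all 27223 tested genes, so the share is near that of all genes. The difference, GALNT3/T6-labelled arrays minus GALNT3 KO, was 2.73 in B3GNT9, 1.73 in FUT4, 0.84 in B3GALNT1, -0.89 in ST3GAL2, -1.51 in ST3GAL4 and -2.56 in FUT10. Of these, B3GNT9 was called against Ctrl in both groups. FUT4 and ST3GAL2 lay close to 0 in GALNT3 KO, at -0.06 and 0.03. The second probe of ST3GAL4 gave the opposite signs in both groups. Another probe of FUT10 lay below Ctrl in both groups, at -0.61 in GALNT3 KO and -2.11 on the others. The other probes of ST3GAL2 also kept to the same side in both groups, at 0.14 and 0.27 and at -0.20 and -0.99.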

How the results depend on the processing

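Without background correction, without a filter on dim probes and with the strict filter (well above background in both channels on all 4 arrays), the counts of called members stayed within 1.5 times those reported in all 3 comparisons. Agilent's log ratio and the deposited series table each called 1 member in GALNT3 KO. The GALNT3 KO arrays alone called 20, limma at the study's threshold (p at most 0.05 and 1.5-fold) 5, the methods' t-test at that threshold 3 and after adjustment 0 (10 at an unadjusted p of at most 0.05). On the GALNT3/T6-labelled arrays, fitting the group alone called 23, the methods' t-test 10 at the study's threshold and 0 after adjustment (13 unadjusted), and between the groups 1 after adjustment. With 2 arrays per group that test has 1 or 2 residual degrees of freedom. Over all tested genes it called, after adjustment, 0 in GALNT3 KO, 1 on the GALNT3/T6-labelled arrays and 33 between the groups. The GALNT3 KO arrays alone called 9447 of all tested genes, and the GALNT3/T6-labelled arrays alone 8282. Leaving out 1 array gave 0 to 20 members in GALNT3 KO, 23 to 31 on the GALNT3/T6-labelled arrays and 6 to 21 between the groups.

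For the donor and removal genes in GALNT3 KO, 10 calls became 1 with Agilent's log ratio or the series table, 4 with median centring, 6 with the mean of all probes, 21 with that group alone, 4 by the methods' t-test at the study's threshold and 0 after adjustment. On the GALNT3/T6-labelled arrays the methods' t-test called 7 of these genes at the study's threshold and 0 after adjustment, and between the groups 0 after adjustment. Without 1 array the counts were 0 to 21, 17 to 20 and 2 to 19.

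The labels share replicate numbers but do not say that they pair the clones, and deviations of same-numbered arrays correlated at r = -0.24. With the replicate block 0 members and 0 donor genes were called in GALNT3 KO, 27 members on the GALNT3/T6-labelled arrays and 14 between the groups. Over all tested genes the block called 82, 10105 and 4749 in these comparisons. A crossed replicate block, chosen after seeing the data, called 10, 33 and 17 members.

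Over single members, 1 called value reversed: B3GALTL read -0.43 with the mean of all probes. More often a call was lost. On the GALNT3/T6-labelled arrays this held for the small calls of ST3GAL6, ST6GALNAC4, ST8SIA4, FUT2, B3GNT4, B3GNTL1, B4GALT7 and B4GALNT3. Each was lost with Agilent's log ratio, with the series table and with the replicate block. The cause of these changes was not tested, apart from the smaller number of arrays or the stricter test by construction. A block for slide or scan was not run, as all arrays share both. Dim probes limit FUT3, ST8SIA1 and ST8SIA6-AS1.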
